A study of Mus musculus with 7 samples.

Results

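Ly6c2 monocytes were 293 of the 33136 cells that passed the cell filter, and 39537 cells were deposited in all. They are host cells from tumors of JW23.3, a mouse malignant peripheral nerve sheath tumor (MPNST) line with mutant Nf1 and Trp53, implanted subcutaneously in C57/B6 female mice aged 5 to 6 weeks. The irradiated group had 4 tumors that received 5 daily fractions of 2 Gy, with shielding outside the tumor, and the control group had 3 tumors that received none. Mice were randomized on day 7, and each tumor was harvested on day 21 and gave 1 library of 3' single-cell RNA counts. The tumor was therefore the replicate. A single tumor line was used and it was grown under the skin, which limits both groups as a model of a nerve tumor. One question of the study was whether radiotherapy changes interferon and chemokine genes of myeloid cells.

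The cells were chosen by their measured counts of transcripts (unique molecular identifiers, UMIs), so those counts describe them and test nothing. Each had at least 500 genes and at most 10% of UMIs from mitochondrial genes, at least 2 UMIs of Ly6c2, and at least 1 UMI of Csf1r or Adgre1. Each also had under 10 UMIs of C1qa, C1qb and C1qc per 10000 UMIs, no Cd3e, Cd3d, Cd3g, Ncr1 or Klrb1c, and at most 1 UMI of the tumor genes Tafa1, Unc5c and Col11a1. Irradiated tumors 1 to 4 held 10, 45, 19 and 141 of these cells, and control tumors 1 to 3 held 46, 11 and 21. Irradiated tumor 4 thus gave 141 of the 293 cells, and 4 tumors gave 21 cells or fewer. The same criteria without the limits on Ly6c2 and C1q define 11377 myeloid cells. Of these, 495 reached the Ly6c2 and the C1q limit (Ly6c2 cells with C1q), 9858 reached the C1q limit with fewer than 2 Ly6c2 UMIs (C1q macrophages), and 731 reached neither.

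Ly6c2 encodes part of the Ly6C antigen of the mouse, and high Ly6C marks classical monocytes. These cells form in the bone marrow, leave it through the chemokine receptor Ccr2, and enter inflamed tissue and tumors. There they lower Ly6C and can take on macrophage genes, among them those of the complement component C1q, and they respond to type I and type II interferons.

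The label was checked against Ccr2 and Plac8, which the rule did not use. Ccr2 UMIs were found in 256 of the 293 monocytes (87.4%) against 46.8% of C1q macrophages and 1.23% of tumor cells, defined here by at least 2 UMIs of the tumor genes and no Csf1r or Adgre1. Ly6c2 cells with C1q held Ccr2 UMIs in 89.3%, so Ccr2 does not set monocytes apart from them. Plac8, which encodes a small cysteine-rich protein abundant in classical monocytes, was found in 87.0% of monocytes and 9.69% of C1q macrophages, but also in 54.9% of tumor cells. When cells were thinned to 3000 UMIs, and those with fewer were left out, Plac8 was found in 82.1% of monocytes, 5.40% of C1q macrophages and 20.3% of tumor cells. Chil3, a chitinase-like protein of monocytes and granulocytes, was found in 52.2% of monocytes and 1.6% of C1q macrophages. Median depth was 7297 UMIs in monocytes, 6731.5 in C1q macrophages and 22881.5 in tumor cells. Xist, which the female host expresses, was found in 93.5% of monocytes and 5.99% of tumor cells.

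The markers of other cell types named here, macrophages apart, were absent or found in a minority of the monocytes. Of macrophage genes, Apoe was found in 85.7% of monocytes, Ms4a7 in 51.5% and Mrc1 in 19.8%. Ly6g, the defining neutrophil marker, and Ms4a1 of B cells had no UMI in the 293 monocytes. A count of 0 covers counting error only. S100a9 was found in 3 cells and S100a8 in 13, Siglech of plasmacytoid dendritic cells in 2, and Cd209a and Flt3 of dendritic cells in 1 and 8. Csf3r, the receptor for granulocyte colony-stimulating factor, was found in 31.4% of monocytes and 28.1% of C1q macrophages, and the immunoglobulin gene Igkc in 3.41% and 5.01%. Of 16 T and NK cell genes 8 had no UMI, but the selection fixed 5 of these at 0 (Cd3e, Cd3d, Cd3g, Ncr1 and Klrb1c). Of 11 neutrophil genes 6 had none. The summed neutrophil list was 186 to 625 UMIs per 1000000 UMIs of the summed cells (CPM) in irradiated and 22.7 to 305 CPM in control monocytes. Most of it was Il1r2 except in control 1, the control at 305 CPM, where other genes of the list gave most. The summed dendritic list was 29.9 to 375 CPM in irradiated and 15.9 to 58.9 CPM in control monocytes, and Xcr1 was at 0. In irradiated 1, the 15 UMIs of Cd209a (312 CPM) came from 1 cell. Transcripts of 13 tumor genes summed to 92.3 to 450 CPM in irradiated and 153 to 3809 CPM in control monocytes, with 3809 CPM in control 2, and Sox10 was at 0. No monocyte was called a doublet. The barcodes of 2 monocytes also occurred in another library, and in neither case was the other cell a monocyte.

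The cells on either side of each limit were compared without a test. The 45 monocytes with exactly 2 Ly6c2 UMIs had 783 CPM of Plac8 and 293 CPM of Chil3 in their summed counts. The 91 cells just outside, with 1 Ly6c2 UMI, had 721 CPM of Plac8 and 212 CPM of Chil3. Ccr2 was at 437 CPM inside this limit and higher, at 567 CPM, just outside. At the C1q limit, the 26 monocytes with 5 to 10 C1q UMIs per 10000 had 1776 CPM of Plac8, and the 32 cells with 10 to 20 had 614 CPM. Ccr2 was at 384 CPM and 380 CPM in these cells, in the same order. C1q was at 0 in 140 of the monocytes.

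Ly6c2 has a close neighbor on chromosome 15, and the start regions of both are shown because Ly6c2 chose the cells and resembles Ly6c1. Ly6c1 encodes the other protein of the Ly6C antigen. Both windows run 5′ to 3′ on the minus strand of GRCm38.p6, from 250 bases before a RefSeq start to 50 after it. They lie at chr15:75111888-75112187 (Ly6c2) and chr15:75048614-75048913 (Ly6c1). Capitals mark the letters GAGGAAGT, a form of the site bound by PU.1, a myeloid transcription factor encoded by Spi1. Both strands were searched.
Ly6c2: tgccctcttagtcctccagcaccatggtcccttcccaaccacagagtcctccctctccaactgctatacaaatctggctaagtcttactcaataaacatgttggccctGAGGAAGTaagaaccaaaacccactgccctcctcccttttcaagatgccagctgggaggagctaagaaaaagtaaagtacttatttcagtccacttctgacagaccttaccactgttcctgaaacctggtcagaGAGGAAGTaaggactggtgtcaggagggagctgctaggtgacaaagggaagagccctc
Ly6c1: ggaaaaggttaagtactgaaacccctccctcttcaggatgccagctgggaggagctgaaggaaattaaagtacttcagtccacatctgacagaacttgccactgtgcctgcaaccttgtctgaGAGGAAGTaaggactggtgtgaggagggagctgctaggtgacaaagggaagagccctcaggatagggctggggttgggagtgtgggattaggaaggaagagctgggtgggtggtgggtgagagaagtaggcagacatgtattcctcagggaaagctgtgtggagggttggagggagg
The best local alignment of the windows matched 143 of 162 positions (88.3%). The motif occurred in 2 places in the Ly6c2 window and in 1 in the Ly6c1 window, and in 3.2% of the 32851 start windows in the RefSeq table. In the cells, Ly6c1 UMIs were found in 2 of the 293 monocytes and in 9.36% of tumor cells, whereas Ly6c2 UMIs were found in 0.613% of tumor cells. Reads that match both genes equally are not assigned to either, so the split of near-identical sequence between them is uncertain.

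The levels below are CPM of the UMIs summed over the cells of 1 population in 1 tumor, averaged over the 7 tumors with equal weight. Monocytes and C1q macrophages of the same tumor were compared by the mean log2 ratio of CPM (prior count 2). Because Ly6c2 and C1q separated the populations, these ratios describe the cells and carry no test. A gene was called where the mean ratio was at least 1 in size and had the same sign in 7 of 7 tumors, among 3893 genes with at least 50 CPM in either population. By this rule 6.27% of the genes were higher and 6.76% lower in monocytes.

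Genes of classical monocytes were higher in monocytes or not called. Of 16 list genes, 14 were compared, 8 were higher in monocytes, none was lower and 6 were not called, with a median log2 ratio of 2.71 against -0.05 for all compared genes. The list holds Ly6c2, which the rule used. Plac8 was at 292, 1756, 1552 and 2149 CPM in irradiated monocytes and at 1398, 1179 and 1836 CPM in control monocytes. Irradiated 1 was the lowest, whereas C1q macrophages were between 10.1 and 80.5 CPM. The mean log2 ratio of Plac8 was 5.54 ± 1.00 (SD, n = 7). Chil3 averaged 352 CPM against 2.96 CPM in C1q macrophages and was at 0 in the 10 monocytes of irradiated 1. S100a6 and S100a4, calcium-binding proteins, had log2 ratios of 2.56 ± 0.48 and 1.99 ± 0.39 (SD, n = 7). Ccr2 averaged 479 CPM against 222 CPM, a log2 ratio of 1.05 ± 0.37. Lyz2, the lysozyme of myeloid cells, did not follow the other list genes and was lower in monocytes in 7 of 7 tumors, by a log2 ratio of -0.69 that missed the call.

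The largest ratios outside the rule were those of F10, Plac8, Chil3, Hp, Plcb1, Ifitm6, Slpi, Sgms2 and Gpr141. F10, the zymogen of coagulation factor X, averaged 64.1 CPM in monocytes and 0.638 CPM in C1q macrophages, a log2 ratio of 5.84 ± 0.76 with 7 of 7 tumors higher. Hp, the hemoglobin-binding protein haptoglobin, averaged 71.4 CPM against 0.457 CPM, and Slpi, a secretory protease inhibitor, 100.4 CPM against 2.23 CPM. Hp, Ifitm6 and Slpi were at 0 in the monocytes of irradiated 1 and were higher in the other 6 tumors. Plcb1, a phospholipase C, averaged 338.5 CPM against 10.2 CPM and was higher in 7 of 7.

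Macrophage genes were low. Of 25 maturation genes, 24 were compared, 19 were lower in monocytes, none was higher and 5 were not called, with a median log2 ratio of -2.12. The list holds C1qa, C1qb and C1qc, which the rule used. Mrc1, the mannose receptor, averaged 120 CPM in monocytes and 925 CPM in C1q macrophages. Apoe, which carries lipids, averaged 2890 CPM against 12490 CPM, so it was lower but plentiful. Fcrls and Selenop, typical of resident macrophages, had log2 ratios of -4.37 ± 1.14 and -2.47 ± 0.36 (SD, n = 7). Cx3cr1, the fractalkine receptor of nonclassical monocytes and macrophages, averaged 91.2 CPM against 406 CPM, with 7 of 7 tumors lower. Of the lowest ratios apart from C1q, Gas6, a ligand of Mertk and Axl, had 8.42 CPM against 189 CPM and no UMI in the monocytes of 4 tumors. Rapgef5, Dach1, Gdf15, Ctla2a, Cadm1 and Gpr34 averaged 3.07 to 5.89 CPM in monocytes against 51.6 to 106 CPM in C1q macrophages, and each had no UMI in at least 3 tumors, where 3 UMIs would be 2.64 to 68.0 CPM.

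**Figure D1:**
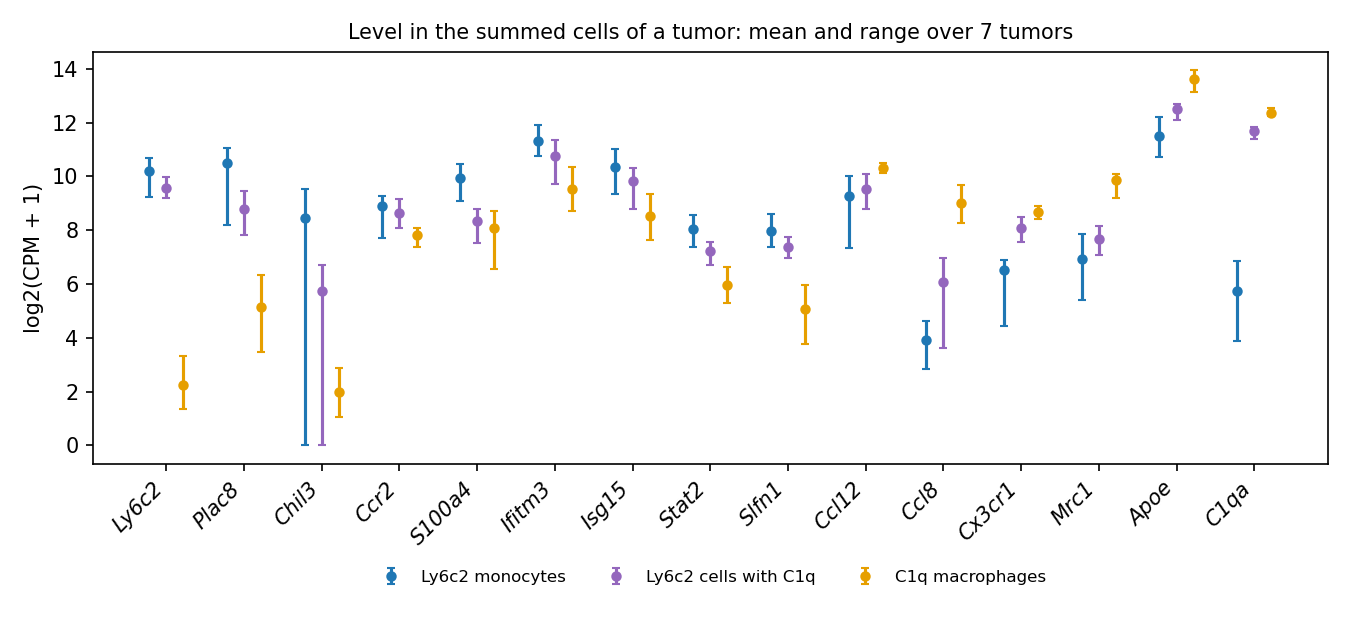
Level of 15 genes, as log2 of CPM plus 1, in the summed Ly6c2 monocytes, Ly6c2 cells with C1q and C1q macrophages of each tumor; points are means of 7 tumors and bars run from the lowest to the highest tumor. Plac8 is at 1452, 436 and 34.3 CPM in this order and Apoe at 2890, 5753 and 12490 CPM, and Ly6c2 and C1qa were used by the rule.

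Type I interferon response genes were higher in monocytes as a group. Of 45 list genes, 40 were compared, 31 were higher, none was lower and 9 were not called, with a median log2 ratio of 1.48. Ifitm3, which blocks virus entry, averaged 2531 CPM against 730 CPM, a log2 ratio of 1.86 ± 0.26 (SD, n = 7). Isg15, a ubiquitin-like modifier, averaged 1317 CPM against 369 CPM, a log2 ratio of 1.91 ± 0.40. Stat2, a subunit of the interferon-activated factor ISGF3, had a log2 ratio of 2.15 ± 0.58, Mx1 2.35 ± 0.82 and Slfn1 3.12 ± 0.73. Irf7, the regulator that amplifies interferon production, averaged 509 CPM against 177 CPM. Bst2 was an exception, at 711 CPM in monocytes and 819 CPM in C1q macrophages. Isg15 UMIs were found in 85.3% of monocytes, 45.4% of C1q macrophages and 35.3% of tumor cells, and after thinning to 3000 UMIs in 74.3%, 33% and 13.8%. Type II interferon response genes gave fewer calls, with 13 of 28 compared, 2 higher (Cd274 and Gbp2), none lower and a median of 0.72.

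Several of these genes share a start-site motif, and 4 windows are shown as examples from genes called higher in monocytes. Ifitm3 (chr7:141010695-141010994, minus strand), Isg15 (chr4:156200769-156201068, minus strand) and Stat2 (chr10:128270248-128270547, plus strand) are of the type I list. Cxcl10 (chr5:92348840-92349139, minus strand) encodes an interferon-induced chemokine. Windows are from the RefSeq table on GRCm38.p6, 5′ to 3′, and capitals mark GAAA, any 2 bases and GAAA on either strand, a core of the interferon-stimulated response element that ISGF3 binds.
Ifitm3: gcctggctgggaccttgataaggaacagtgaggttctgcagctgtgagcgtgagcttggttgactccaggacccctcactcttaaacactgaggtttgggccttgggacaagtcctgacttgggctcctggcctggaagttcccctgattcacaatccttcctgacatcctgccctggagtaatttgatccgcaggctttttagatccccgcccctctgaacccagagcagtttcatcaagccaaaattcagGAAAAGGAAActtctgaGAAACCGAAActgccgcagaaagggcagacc
Isg15: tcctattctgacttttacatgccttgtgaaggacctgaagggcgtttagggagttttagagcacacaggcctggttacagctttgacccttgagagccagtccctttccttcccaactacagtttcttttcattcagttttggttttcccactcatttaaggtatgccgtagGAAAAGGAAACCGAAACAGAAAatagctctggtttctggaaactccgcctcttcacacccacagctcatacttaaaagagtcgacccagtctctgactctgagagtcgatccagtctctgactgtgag
Stat2: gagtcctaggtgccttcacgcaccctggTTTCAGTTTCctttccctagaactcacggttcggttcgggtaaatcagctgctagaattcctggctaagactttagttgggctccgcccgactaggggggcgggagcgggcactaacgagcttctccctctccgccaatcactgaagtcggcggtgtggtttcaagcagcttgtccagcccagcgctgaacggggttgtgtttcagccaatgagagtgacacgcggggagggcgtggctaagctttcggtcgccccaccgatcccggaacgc
Cxcl10: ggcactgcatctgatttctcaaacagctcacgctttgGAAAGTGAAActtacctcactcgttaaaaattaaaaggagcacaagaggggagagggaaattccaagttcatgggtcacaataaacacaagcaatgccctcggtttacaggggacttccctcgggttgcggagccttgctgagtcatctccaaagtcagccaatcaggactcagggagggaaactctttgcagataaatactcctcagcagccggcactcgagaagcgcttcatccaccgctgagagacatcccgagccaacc
The motif was in 3.44% of all windows. Of the 45 type I genes, 35 had a window in the table and 19 of them held the motif in at least 1 window, against 1079 of 27025 genes in all (3.99%). It was in 12 of 24 type I genes higher in monocytes and in 5 of 7 that were compared and not called. In Isg15 it occurred 3 times in overlapping copies, in Ifitm3 2 times, and in Stat2 and Cxcl10 once. A match is a description of the letters, and so is its absence.

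Among chemokines, monocytes were higher for some and lower for others. Of 18 list genes, 13 were compared, 3 were higher (Cxcl10, Ccl5 and Ccl9), 2 were lower (Ccl12 and Ccl8) and 8 were not called. Cxcl10, a ligand of Cxcr3, averaged 920 CPM against 291 CPM. Ccl8, a CC chemokine, averaged 13.9 CPM in monocytes and 516 CPM in C1q macrophages, with 20 UMIs in all 293 monocytes. Ccl2, the main ligand of Ccr2, averaged 1146 CPM against 672 CPM and was not called. Receptors and adhesion molecules of recruitment other than Ccr2 differed little, with none of 12 compared genes called and a median of 0.08. Il1b, encoding interleukin 1 beta, averaged 1376 CPM against 571 CPM (log2 ratio 1.40 ± 0.64, 7 of 7 higher). Thbs1, Slfn4, Clec4e and F10 were among 6 of 15 compared effector genes that were higher, and Hmox1 and Pdpn were the 2 that were lower. Of 18 compared transcription factors, Bhlhe40 was higher, Cebpa was lower and 16 were not called. Stmn1, Pcna and Mcm3 were the 3 cell cycle genes called lower.

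Cells with both Ly6c2 and C1q lay between the 2 populations for most of these genes. Their mean level was intermediate for 38 of 40 type I interferon genes, 21 of 24 maturation genes and 11 of 14 classical monocyte genes, against 57.2% of all compared genes. The maturation list holds C1qa, C1qb and C1qc and the classical list Ly6c2. The rule set the populations apart by these genes, so their order is not read and the counts carry no test. Plac8 was 1452 CPM in monocytes, 436 CPM in cells with both and 34.3 CPM in C1q macrophages. Mrc1 was 120, 204 and 925 CPM in the same order. MHC class II genes did not follow this order, with 2 of 8 intermediate. H2-Aa was 1569 CPM in monocytes, 1942 CPM in cells with both and 1062 CPM in C1q macrophages. Since these are cells at 1 time point, the order is one of levels and not of time. The cells with both were also deeper, with a median of 9842 UMIs against 7297 in monocytes and 6731.5 in C1q macrophages. The part of doublets of a monocyte and a macrophage in these levels was not tested.

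The share of monocytes varied more between tumors than between the groups. Of all cells that passed the filter, monocytes were 0.159%, 1.95%, 0.625% and 4.80% in irradiated tumors 1 to 4 and 0.909%, 0.159% and 0.319% in control tumors 1 to 3. The groups overlapped, with irradiated 1 at the level of the lowest control and irradiated 4 above the rest. The means were 1.88% ± 2.09 (SD, n = 4) and 0.463% ± 0.395 (SD, n = 3), and the difference of 1.42 percentage points gave p = 0.371 in a two-sided exact permutation test (adjusted p = 0.571 over 3 shares, smallest possible p 0.0286). Without irradiated 4 the difference was 0.448 points. Among myeloid cells the share was 0.560%, 4.74%, 1.75% and 9.43% in irradiated and 3.71%, 0.465% and 0.856% in control tumors. This difference was 2.44 points (exact permutation p = 0.429, adjusted p = 0.571), and 0.673 points without irradiated 4.

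Libraries were split into 2 technical sets by cell number, depth, genes per cell and mitochondrial share. The first held irradiated 1 with controls 2 and 3, and the second the other 4. This was the best of 42 splits that kept both groups in each set. It left a share of 0.561 of the variation within sets, against 0.624 for the next split. Within the first set the irradiated minus control difference in the share of all cells was -0.0806 points and within the second it was 1.55 points. For the share of myeloid cells these were -0.101 and 1.6 points. The labels give no batch, and the part of the sets was not tested beyond these values. Fewer cells in the tumor and fewer cells released by dissociation cannot be told apart.

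Of Ly6c2 cells, the share that carried C1q was 52.4%, 66.4%, 66.7% and 63.6% in irradiated tumors and 59.3%, 66.7% and 51.2% in control tumors. Irradiated tumors averaged 62.3% ± 6.73 (SD, n = 4) and controls 59.0% ± 7.76 (SD, n = 3). The difference of 3.22 points was smaller than the SD of either group (exact permutation p = 0.571, adjusted p = 0.571). It was -6.53 points in the first technical set and 6.26 points in the second, and -0.72 points without control 3. Each cell with at least 3000 UMIs was also thinned to 3000 before the limits were applied, and shallower cells were left out. The C1q share of Ly6c2 cells became 71.4%, 69.5%, 73.3% and 57.6% in irradiated and 57.4%, 57.1% and 40% in control tumors. The groups then did not overlap, by the narrow margin between irradiated 4 and control 1, and the difference was 16.4 points (exact permutation p = 0.0571). Thinning left 2 monocytes in irradiated 1 and 6 in control 2. The size of this difference thus changed under thinning, where the depth and the set of cells changed together.

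**Figure D2:**
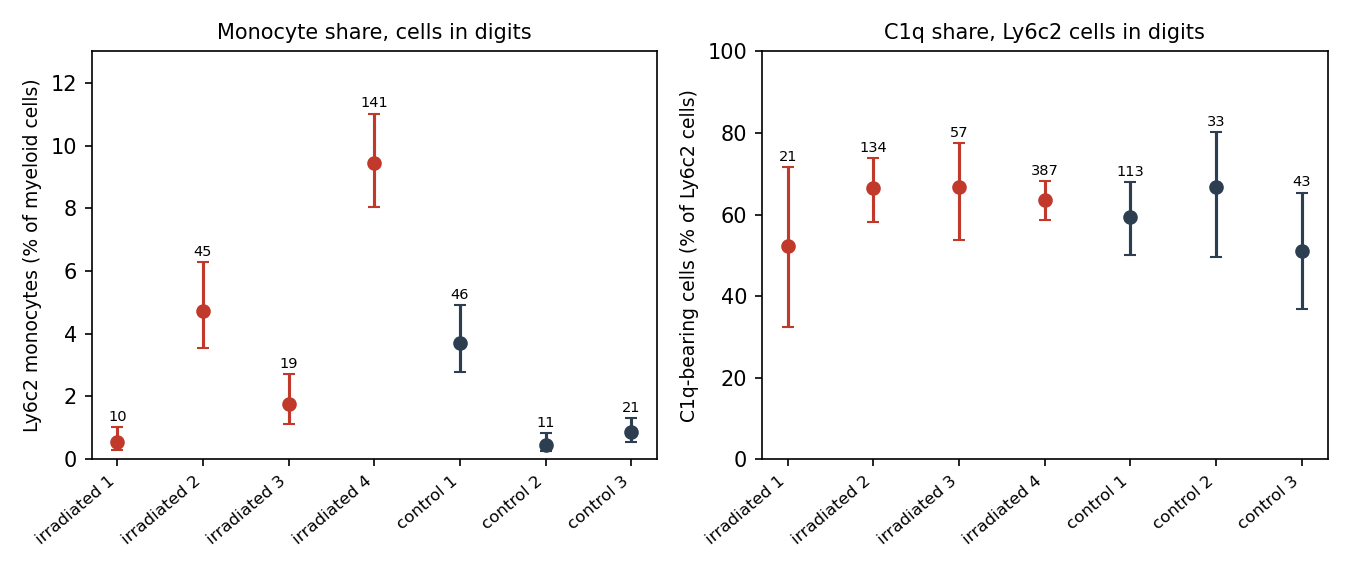
Left, Ly6c2 monocytes as a percentage of myeloid cells in each tumor, and right, the percentage of Ly6c2 cells that carried C1q; red points are irradiated tumors, dark points controls, bars are 95% Wilson intervals that cover counting error only, and digits give the monocytes (left) or Ly6c2 cells (right). Irradiated 4 stands at 9.43% on the left, and on the right the groups overlap between 52.4% and 66.7%.

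Irradiated and control monocytes were then compared gene by gene in the summed counts of each tumor (edgeR quasi-likelihood test with Benjamini-Hochberg adjustment). Of 3273 genes tested, none passed an adjusted p of 0.05 (0%), the smallest adjusted p was 0.681, and DESeq2 and limma-voom also called none. An unadjusted p under 0.05 was found for 106 genes (3.24%), and the 2 groups did not overlap for 159 genes (4.86%). The log2 fold change was above 0 for 49.3% of genes, with a median of -0.01. Ly6c2 and the other genes of the rule are bounded by it, so their change is not read. In simulated counts with the depth of these tumors, 177 of 200 genes changed by 2 on the log2 scale were called, with 9 false calls. Only genes of this test were simulated. Smaller changes were not, so their recovery is unknown. Without any filter on low counts, 56 genes passed, 8 higher and 48 lower, and 6 of the 8 were Ccl2, Ccl6, Ccl12, Cxcl9, Arg1 and Il1r2.

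Chemokines leaned to higher levels in irradiated monocytes, and none passed in the main test. Without the filter on low counts, 4 of them passed in edgeR, in a setting where most genes that passed were lower. These were the log2 fold change of Ccl12 (adjusted p = 0.0128), the log2 fold change of Ccl6 (adjusted p = 0.0086), the log2 fold change of Ccl2 (adjusted p = 0.0086) and the log2 fold change of Cxcl9 (adjusted p = 0.0133). With at least 10 CPM in 3 tumors none of the 4 passed. The edgeR adjusted p was then 0.174 for Ccl12, 0.465 for Ccl6, and 0.9999 for Ccl2 and for Cxcl9. All 12 tested members had a log2 fold change above 0, with a median of 1.12 against -0.01 for all genes. Of the 12, 4 had an unadjusted edgeR p under 0.05 and 2 did not overlap. Over all genes tested, 49.3% were above 0, 3.24% had such a p and 4.86% did not overlap. The 12 genes share the same 7 sums and are not independent. Ccl12, a Ccr2 ligand of the mouse, was at 750, 1021, 822 and 701 CPM in irradiated tumors 1 to 4 and at 384, 159 and 494 CPM in controls 1 to 3. Every irradiated value was above every control value, in both technical sets. The log2 fold change of Ccl12 was 1.17 ± 0.27 (SE), with an edgeR adjusted p = 0.681. Ccl6, another CC chemokine, was at 500, 593, 329 and 502 CPM in irradiated and at 296, 45.3 and 118 CPM in control monocytes, again without overlap. The change of Ccl6 was 1.28 ± 0.36 (SE), and 2.43 without control 1. The 45.3 CPM of control 2 were 2 UMIs, under the floor of 3. Ccl2 was at 562, 2496, 1363 and 1455 CPM in irradiated and at 766, 862 and 518 CPM in control monocytes, so irradiated 1 lay among the controls. Ccl7, which also binds Ccr2, was at 0, 1711, 834 and 770 CPM against 246, 907 and 153 CPM and overlapped. Ccl8 was not tested because of its low counts, at 6.09 to 20.8 CPM in irradiated and 11.4 to 23.5 CPM in control monocytes. Cxcl9, a T cell attractant induced by interferon gamma, was at 0, 102, 60.9 and 146 CPM against 38.6, 0 and 0 CPM.

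**Figure D3:**
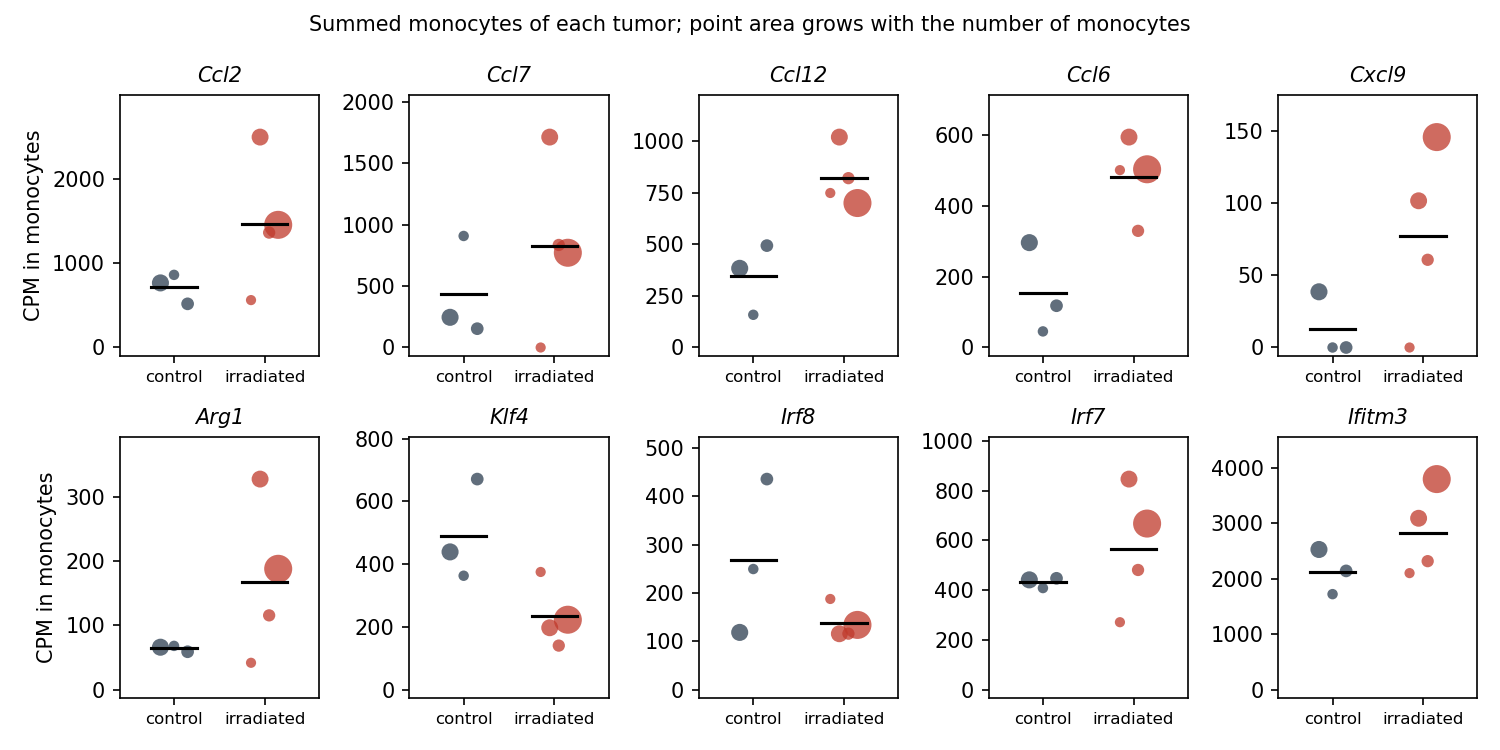
CPM of 10 genes in the summed monocytes of each tumor, controls in dark and irradiated tumors in red; the bar is the mean of a group and the area of a point grows with the number of monocytes (10 to 141). Ccl12 and Ccl6 do not overlap between the groups, and the other 8 genes do.

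Among the interferon genes that the study follows in myeloid cells, Irf7 was at 271, 846, 481 and 668 CPM in irradiated and at 441, 408 and 447 CPM in control monocytes. Irradiated 1 was the lowest of all 7 tumors and the other 3 irradiated tumors were above the controls. The log2 fold change of Irf7 was 0.45 ± 0.28 (SE). Ifitm3 was at 2103, 3094, 2319 and 3802 CPM against 2530, 1723 and 2143 CPM, a change of 0.39 ± 0.21 (SE), with overlap. Neither gene passed, and each had an edgeR adjusted p = 0.9997. Of 40 tested type I genes, 35 had a log2 fold change above 0 and the median was 0.37. An unadjusted edgeR p under 0.05 was found for 2 (Oas2 and Phf11d), and 2 did not overlap (Oas2 and Bst2). Over all genes tested, 49.3% were above 0, 3.24% had such a p and 4.86% did not overlap. The counts of 2 were thus near the shares over all genes. The summed type I list was 10746, 21134, 13007 and 20449 CPM in irradiated and 14063, 10838 and 15468 CPM in control monocytes, so that irradiated tumors 2 and 4 were above and irradiated 1 below all controls. The tumors above, 2 and 4, were also the deepest irradiated monocyte sums, and the part of depth was not tested.

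Of 12 tested type II interferon genes, 12 had a log2 fold change above 0, with a median of 0.34. An unadjusted edgeR p under 0.05 was found for 1 (Gbp2, a guanylate-binding protein). The shares over all genes tested were 49.3% above 0, 3.24% with an unadjusted p under 0.05 and 4.86% without overlap. Psmb8 and Psmb10, subunits of the immunoproteasome, did not overlap, and Psmb8 was at 417, 360, 396 and 556 CPM in irradiated against 311, 272 and 330 CPM in control monocytes. Tap1, which carries peptides to MHC class I, was at 146, 147, 122 and 152 CPM against 72.7, 22.7 and 118 CPM, a log2 fold change of 0.89 ± 0.34 (SE) that did not pass. Of 10 tested MHC class I genes, 7 had a change above 0 and 3 had an unadjusted p under 0.05. All 8 tested MHC class II genes had a change above 0, with a median of 0.48, and none had an unadjusted p under 0.05. Without irradiated 1, the log2 fold change of H2-Eb1 went from 0.97 to 0.099, the log2 fold change of Cd74 from 0.79 to 0.19 and the log2 fold change of H2-Ab1 from 0.78 to 0.25. H2-Eb1 was at 4019, 462, 1461 and 612 CPM in irradiated and at 671, 1156 and 577 CPM in control monocytes. The value of irradiated 1 rested on 10 cells, and that tumor also had the highest summed dendritic list, 375 CPM against at most 58.9 CPM in the others. The part of the cell with Cd209a in these values was not tested.

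Inflammatory mediators and transcription factors were mixed. Arg1, the arginase of tumor myeloid cells, was at 41.6, 328, 116 and 188 CPM in irradiated and at 65.9, 68.0 and 58.9 CPM in control monocytes, with irradiated 1 below every control. The log2 fold change of Arg1 was 1.59 ± 0.46 (SE). Osm, an interleukin 6 family cytokine, had a change of 0.89 ± 0.37 (SE). Klf4, a transcription factor of monocyte differentiation, was at 375, 197, 140 and 222 CPM against 439, 363 and 671 CPM, so only irradiated 1 reached the controls. The change of Klf4 was -1.22 ± 0.29 (SE), with an edgeR adjusted p = 0.681. Irf8, required for the dendritic and monocyte lineages, was at 187, 115, 116 and 134 CPM against 118, 249 and 436 CPM. Control 3, the highest for Irf8, also had the highest summed plasmacytoid dendritic list, 1271 CPM against at most 476 CPM in the others, most of it Tcf4. The part of those cells was not tested, and Siglech was found in 2 of all monocytes. Of 16 tested transcription factors, 12 had a change below 0, with a median of -0.09.

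Classical monocyte genes had changes on either side of 0. Their 13 tested members had a median log2 fold change of 0.01, with 8 above 0 and 5 below, and none was without overlap. Ccr2 was at 208, 482, 420 and 577 CPM in irradiated and at 455, 590 and 624 CPM in control monocytes, a change of -0.28 ± 0.27 (SE). Hp was at 0, 106, 183 and 114 CPM against 50.01, 22.7 and 23.5 CPM and did not pass. Of 20 tested maturation genes, 14 had a change below 0 and the median was -0.25. Fcrls and Cd81, a tetraspanin, were the 2 of these with an unadjusted edgeR p under 0.05, against 3.24% of all genes tested. The dissociation list had 9 genes above and 9 below 0 and a median of 0.01. Of 7 tested p53 target genes, 6 had a change above 0, with a median of 0.25, and none had an unadjusted p under 0.05. Cdkn1a, the p53-induced inhibitor of the cell cycle, had a change of 0.25 ± 0.25 (SE).

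**Figure D4:**
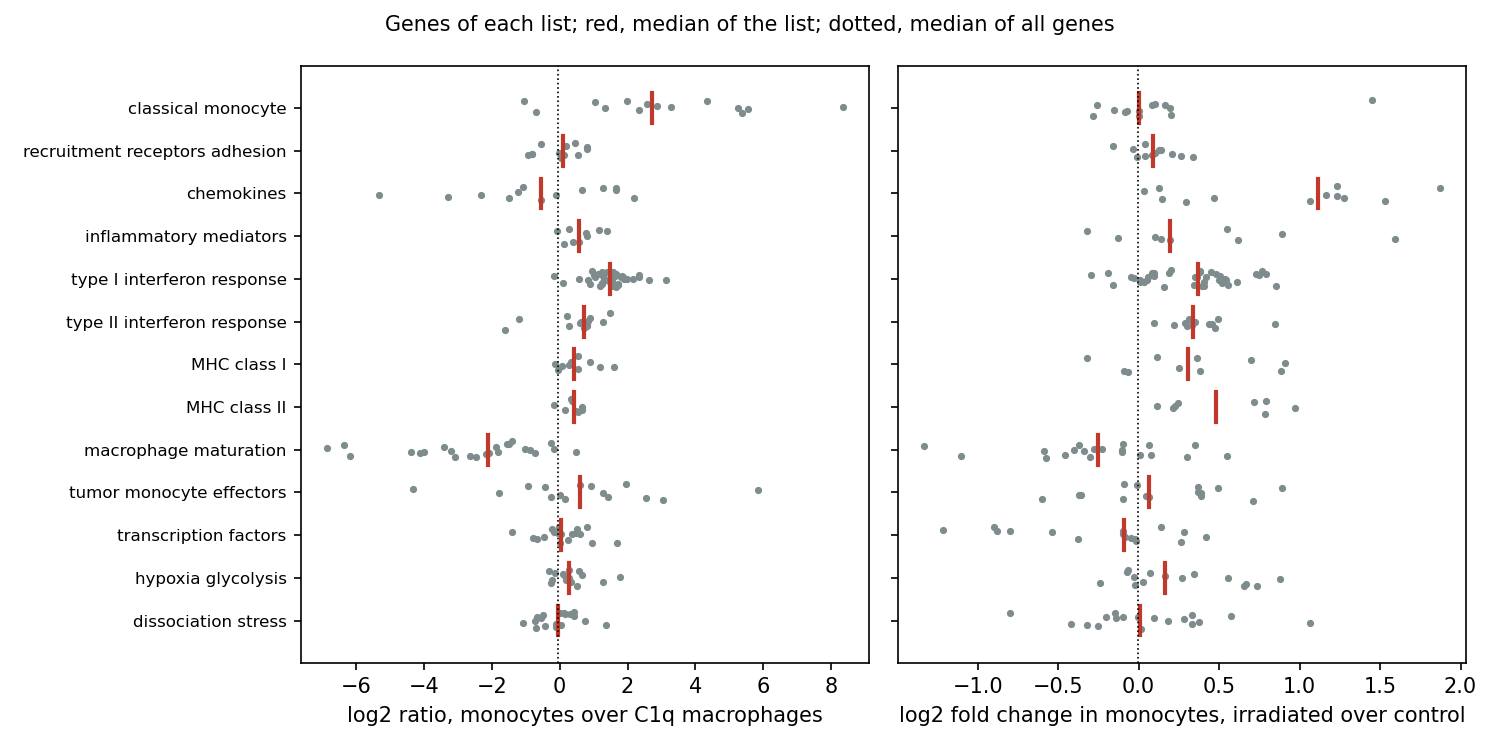
Each point is a gene of a list; left, mean log2 ratio of monocytes over C1q macrophages over 7 tumors, and right, log2 fold change of irradiated over control monocytes; the red bar is the median of the list and the dotted line the median of all genes. On the left the type I interferon list has a median of 1.48 and the maturation list -2.12, and on the right the chemokines stand at 1.12.

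By the rule for named genes, the 5 smallest unadjusted p-values in each direction among genes without overlap and with at least 50 CPM were Ccl12, H3f3b, Ccl6, Dhx40 and Wdr44 (higher) and mt-Cytb, Kansl1l, Adamts6, Rfx3 and Hdac9 (lower). None passed. H3f3b, which encodes histone H3.3, was at 6747, 6269, 5399 and 6395 CPM in irradiated and at 3867, 3877 and 4838 CPM in control monocytes, a log2 fold change of 0.55 ± 0.16 (SE). The mitochondrial cytochrome b gene mt-Cytb was at 2686, 1724, 2075 and 1865 CPM against 3153, 3401 and 3002 CPM. The selection limits the mitochondrial share of a cell, and this change is not read. The limit left out few of these cells. Without it irradiated 2, 3 and 4 held 46, 20 and 142 monocytes, and the other tumors did not change. The median mitochondrial share of the monocytes was 1.89% to 3.27% in irradiated and 2.45% to 2.95% in control tumors. Hdac9, a class IIa histone deacetylase, was at 20.8, 97.3, 85.2 and 107 CPM against 143, 159 and 271 CPM. Col3a1, a collagen found in 99.3% of tumor cells, was at 33.4 to 146 CPM in irradiated and at 168, 1338 and 23.5 CPM in control monocytes. The value of 1338 CPM came from the 11 monocytes of control 2.

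Whether a change differed between monocytes and C1q macrophages was tested with the tumor as a block. Of 11966 genes tested, 23 passed an adjusted p of 0.05 (0.192%), 1 higher and 22 lower in monocytes, and 608 had an unadjusted p under 0.05. They included 5 of the 20 genes of the cell cycle list. Top2a, which untangles DNA in mitosis, differed by -2.55 ± 0.49 (SE, adjusted p = 0.000776, edgeR), and Mki67 by -3.20 ± 0.58 (SE, adjusted p = 0.000178, edgeR). Their monocyte counts came from few cells. Top2a UMIs were 2, 8, 3 and 11 in irradiated and 54, 0 and 0 in control tumors, and Mki67 UMIs were 1, 0, 0 and 14 against 40, 0 and 0. A single monocyte of control 1, with 45444 UMIs, held 146 of the 213 UMIs of Mki67, Top2a, Cenpf and Ube2c in all 293 monocytes. That cell had 2 UMIs of Ly6c2, 14 of Ccr2, 0 of Plac8, 16 of Xist and 1 of the tumor genes. Without it 4 genes passed, 3 of them among the 23, and the differences were 1.70 for Top2a and 0.69 for Mki67. The fit used 1 spread for both populations, a biological coefficient of variation of 16.0%, while monocytes alone had 21.6% and C1q macrophages alone 17.9%.

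**Figure D5:**
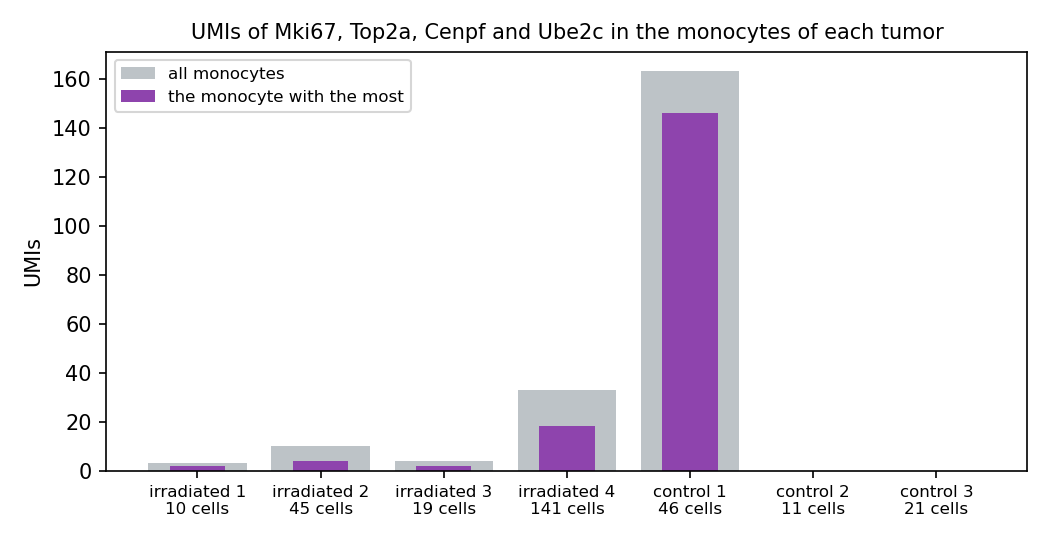
UMIs of Mki67, Top2a, Cenpf and Ube2c summed over the monocytes of each tumor (wide grey bars) and in the monocyte with the most (narrow purple bars). One cell of control 1 holds 146 UMIs, and controls 2 and 3 have none.

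Plac8 was another of the 23 genes. Its log2 fold change in monocytes was 0.00 ± 0.50 (SE), and C1q macrophages averaged 45.9 CPM in irradiated tumors against 18.8 CPM in controls (change 1.26 ± 0.62, SE). The difference was -1.17 ± 0.29 (SE, adjusted p = 0.0286, edgeR), and it missed the threshold without irradiated 2, irradiated 4, control 2 or control 3. Plac8 was also found in 54.9% of tumor cells, and the summed tumor list in C1q macrophages was 90.0 to 415 CPM in irradiated and 285 to 481 CPM in control tumors. The part of tumor RNA in the macrophage level was not tested. Cxcl1, a neutrophil attractant, was the 1 gene higher, by 4.27 ± 1.09 (SE, adjusted p = 0.0477, edgeR), on 45 UMIs in all monocytes, of which irradiated 2 and 4 gave 26 and 17. It missed the threshold without irradiated 2, irradiated 4, control 1 or control 3. For Ccl12 the difference was 1.15 ± 0.30 (SE), with an adjusted p = 0.0542 in the same edgeR test. C1q macrophages had 1349 CPM of Ccl12 in irradiated and 1185 CPM in control tumors. Irf7 and Ifitm3 differed by -0.32 ± 0.30 and -0.21 ± 0.27 (SE), and neither passed.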

How the data were processed

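Single-cell 3' RNA libraries of 7 tumors (4 irradiated, 3 control, grouped by their labels) were analysed, and the tumor was the replicate. The authors deposited UMI counts per gene and cell, filtered by Cell Ranger (8.0.0 per the file headers). The submitters' notes also name Seurat 4.4 and mm10. UMIs of the chosen cells were summed per tumor. The 7 monocyte sums held 44105 to 1137019 UMIs, and 3 UMIs were 2.64 to 68.0 CPM. The members and gene lists were chosen with earlier results of these data known.

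Groups were compared with edgeR 4.0.16 (filterByExpr, TMM, robust quasi-likelihood test, Benjamini-Hochberg adjustment over all genes tested, threshold 0.05), and shares with an exact two-sided permutation test over 35 splits. The difference between populations was an interaction in edgeR with the tumor as a block. For irradiated against control only separate tumors were compared, so those p-values rest on the spread between these tumors. The interaction also compared 2 populations within each tumor, and its fit used 1 spread for both. Wilson 95% intervals and floors cover counting error only. Doublets were called with Scrublet in scanpy 1.11.5 (765 cells, 1.935%). Distinct barcodes numbered 39347, and 190 occurred in more than 1 library.

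Genes were named by a fixed rule. They were the genes of the selection with Ccr2 and Plac8, genes past the threshold or otherwise the 5 smallest p-values each way without overlap, the 3 highest and 3 most different members of each list, the interferon and chemokine genes the study follows, and the 10 largest ratios to C1q macrophages each way. Other genes were named after their values were seen, where a count or a list needed examples (Hspb1, Cxcl1, Mki67, Cenpf, Ube2c, Mcm3, Mrc1, Selenop, S100a4, Pdpn, Hmox1, Bhlhe40, Cebpa, Bst2, Psmb10, Stat2, Slfn1, Slfn4, Mx1, Ccl5, Ccl9, Cd274 and the markers at 0). The tests were tested on simulated data with the tumors' depth, where 88.5% of 200 genes changed by 2 on the log2 scale were recovered with 9 false calls, and 44% for the difference between populations with 0. Smaller changes were not simulated. Alternatives were other size factors, filters, cell limits, DESeq2 1.42.0, limma 3.58.1, a technical set, a replicate block and leaving out each tumor. Start windows were searched in a RefSeq table (GRCm38.p6), and gene coordinates come only from that table. Some genes that the rule names are not reported here.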

Additional observations from a re-analysis of the deposited data

Results flagged for a closer look

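In irradiated monocytes, Il1r2, a decoy receptor for interleukin 1, was at 624.7, 201, 201 and 122 CPM in tumors 1 to 4, and the first tumor stood far from the other 3. It held 10 monocytes. Controls 1 to 3 were at 93.2, 22.7 and 82.4 CPM. In edgeR the log2 fold change of Il1r2 was 1.45 (adjusted p = 0.9997), 2.31 with the replicate block (adjusted p = 0.0467) and 1.53 without the filter on low counts (adjusted p = 0.0164). Of 47 groups of 4 tumors looked at, 1 was picked out this way, and chance picks out about 1 in 20.

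Of the 23 genes whose irradiated minus control change differed between monocytes and C1q macrophages in the edgeR interaction test, 5 are given here. The difference was 4.27 for Cxcl1, -1.17 for Plac8, -2.71 for Hspb1, a small heat shock protein, -3.20 for Mki67 and -2.55 for Top2a on the log2 scale. Hspb1 had 0, 1, 0 and 15 UMIs in irradiated and 46, 0 and 2 in control monocytes, so control 1 gave most of them. Without the single cell of control 1 that held most of the cell cycle UMIs, the differences of Mki67 and Top2a were 0.69 and 1.70, and neither passed.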

How the results depend on the processing

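The differences in the monocyte shares of all cells and of myeloid cells kept their direction and their side of the threshold under each alternative run. Leaving out single tumors moved them from 0.448 to 2.00 and from 0.673 to 3.63 points. The difference in the C1q share of Ly6c2 cells ran from -0.72 (without control 3) to 7.03 points (without control 2) over left-out tumors. The C1q share of Ly6c2 cells differed by 0.24 points with the technical set as a term, 7.46 with at least 3 Ly6c2 UMIs and 16.4 with cells thinned to 3000 UMIs. Thinning gave 0.844 and 1.64 points for the shares of all cells and of myeloid cells. Replicate numbers did not pair the tumors (correlations of deviations -0.0893, -0.0914 and -0.0435 over 3271 genes, and 0 of 6 tumors closest to their own number). With a replicate block the share differences were 0.448, 0.673 and 2.78 points, 1 gene (Il1r2) passed in monocytes and 0 differed between populations. Without the filter on low counts 56 genes passed in monocytes, and with at least 10 CPM in 3 tumors 0 did.

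The 23 genes that differed between populations became 37 with the technical set as a term, 4 with at least 3 Ly6c2 UMIs, 1 with equal cells per tumor, 51 with only tumors of at least 15 monocytes and 4 without the single dividing cell, the last 2 settings chosen after seeing the data. Leaving out single tumors gave 2 (without irradiated 2) to 37 (without irradiated 1). The difference in the change of Mki67 was -5.33 to 8.23 over left-out tumors, 1.36 with 3 Ly6c2 UMIs and 0.69 without the cell. The difference in the change of Top2a was -2.97 to 9.11, 2.00 and 1.70. The difference in the change of Hspb1 was -5.01 to 0.18, and 0.22 with 3 Ly6c2 UMIs. The highest of each range was without control 1. Of 840 alternative values for 44 genes in monocytes, 834 kept their direction. With equal cells per tumor Hdac9 was 0.11, Rsad2 -0.57, H2-T22 -0.061, Irf7 -0.063 and Isg15 -0.10, and with the replicate block the log2 fold change of Isg15 was -0.013. The cause was not tested. With 10 to 21 monocytes in 4 tumors, genes under the 3-UMI floor could not be compared.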
